A study of Mus musculus with 4 samples.

Results

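The barcodes described here are droplets of the stria vascularis cell captures that carried RNA of intermediate cells but almost none of the nuclear transcript Malat1. The members were chosen by measured UMIs. A droplet barcode was counted when it had at least 200 detected genes, when Malat1 made up under 0.7% of its unique molecular identifiers (UMIs, each standing for 1 captured transcript), when Met, Kcnj13, Nrp2 and Mlana together gave at least 3 UMIs and more than Kcne1, and when the hemoglobin genes Hbb-bs and Hba-a1 together stayed under 1% of UMIs. There were 628 such barcodes among the 3330 barcodes of the 3 cell captures, and among 14387 barcodes in the series. They numbered 103 in capture 1, 277 in capture 2 and 248 in capture 3. These were 27.2% (95% exact binomial interval 22.8 to 32.0), 20.8% (18.7 to 23.1) and 16.7% (14.9 to 18.7) of the barcodes with at least 200 genes in captures 1, 2 and 3. The intervals cover counting error only. Malat1, Met, Kcnj13, Nrp2, Mlana, Kcne1, Hbb-bs and Hba-a1 are given below as a description, because the members were selected on them.

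The series profiled the stria vascularis, the epithelium of the cochlear lateral wall, of CBA/J mice (strain 000656) at postnatal day 30. The labels give no genetic change and no treatment. The 3 cell captures were made from trypsin-dissociated tissue pooled over animals, and 1 further capture held nuclei from detergent-lysed tissue. Cell captures 1, 2 and 3 held 392, 1358 and 1580 barcodes with 2811309, 8113494 and 8340882 UMIs, and the nucleus capture held 11057 barcodes with 22332501 UMIs. The capture is the replicate throughout, and a single mouse cannot be traced. The p-values measure how far the differences between groups of barcodes varied from capture to capture. In the edgeR fit this spread was estimated over all 4 groups of barcodes together. Captures 2 and 3 shared 6 barcode sequences, 1 of them a member, captures 1 and 2 shared 2, and captures 1 and 3 shared none.

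The stria vascularis generates the endocochlear potential. Its marginal cells face the endolymph and secrete potassium through a channel that includes Kcne1, its intermediate cells are melanocytes whose potassium channel Kcnj10 sets the potential, and its basal cells seal the tissue with Cldn11 tight junctions. Marginal and intermediate cells interlock through their processes. Malat1 is a noncoding RNA held in nuclear speckles, so a droplet that contains a whole cell or a nucleus normally carries it. Mitochondrial mRNAs, ribosomal protein mRNAs and most other short housekeeping mRNAs lie outside the nucleus. Whether a member was a cell fragment, a cell that had lost its nucleus or a droplet of free RNA was not tested.

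Another 3 groups of barcodes from the same captures served for comparison, each set by the same genes. Malat1-bearing intermediate barcodes met every other part of the rule but had Malat1 at 0.7% of UMIs or more (152, 555 and 516 in captures 1, 2 and 3). Low-Malat1 marginal barcodes had at least 3 Kcne1 UMIs, and at least as many of these as of the 4 intermediate genes (20, 108 and 53). Malat1-bearing marginal barcodes were the same above the Malat1 limit (13, 53 and 24). A further 747 low-Malat1 barcodes met neither gene rule, so the members were 628 of the 1556 low-Malat1 barcodes in these 3 groups.

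Malat1, which set the members apart, was nearly absent from most of them and did not run evenly up to the limit. The median Malat1 share was 0.017%, 0.025% and 0.014% of UMIs in the members of captures 1, 2 and 3, and 3.47%, 5.17% and 3.42% in the Malat1-bearing intermediate barcodes. No Malat1 UMI at all was found in 261 members (46, 98 and 117). Just inside the limit, 34 members lay between 0.5% and 0.7%, and just outside it 39 Malat1-bearing intermediate barcodes lay between 0.7% and 0.9%. By the 4-gene rule, 143 members stood at the minimum of 3 UMIs, 127 at 4 and 85 at 5, while 195 barcodes stopped short at 2.

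**Figure D1:**
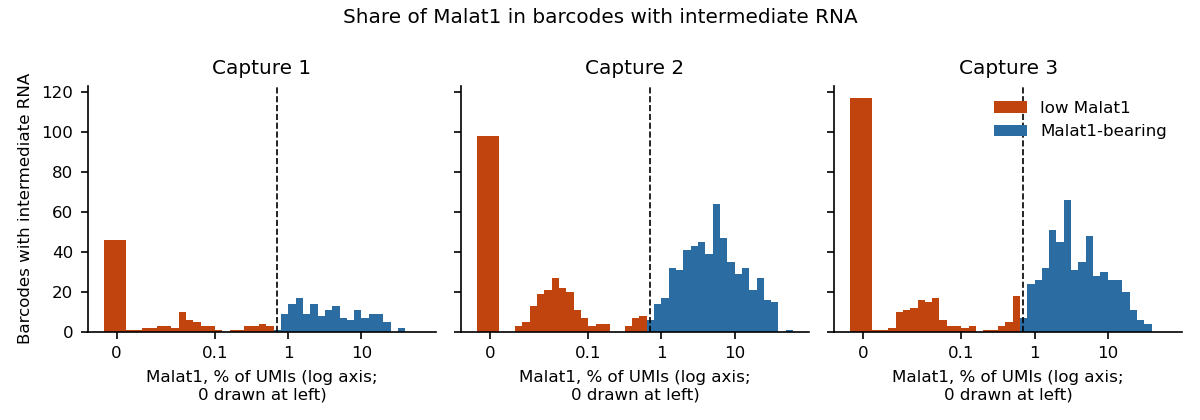
Number of barcodes with intermediate RNA (y axis) by share of Malat1 among their UMIs (x axis, percent, log scale with 0 drawn at the left), in 1 panel per cell capture, with a dashed line at the 0.7% limit. Members (red) form a bar at 0 with 46, 98 and 117 barcodes and a low hump below 0.1%, and the Malat1-bearing barcodes (blue) have medians of 3.47%, 5.17% and 3.42%.

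The members were shallow, and unevenly so. Their median was 3762, 4063 and 3771 UMIs in captures 1, 2 and 3, against 9814, 7426 and 6478.5 in the Malat1-bearing intermediate barcodes, which held 2.61, 1.83 and 1.72 times as many. For UMIs of nuclear-encoded genes the gap was wider, at medians of 1951, 1683 and 1420.5 against 6436, 4565 and 4028.5, or 3.30, 2.71 and 2.84 times. Members had a median of 1009, 920 and 822.5 genes, and Malat1-bearing barcodes 2574.5, 2036 and 1914. Part of that gap in genes went with depth. Thinned to 1000 UMIs of any kind, members had a median of 399, 347 and 305 genes and Malat1-bearing barcodes 486, 477 and 465.5, a difference of -125.8 ± 36.9 genes (SD over 3 captures). Thinned to 1000 nuclear-encoded UMIs, which left out the 118 members with fewer (11, 37 and 70) and 5 Malat1-bearing barcodes, the medians were 614, 626 and 635 genes and 648.5, 640 and 652.5 genes, a difference of -22 ± 10.97 genes (SD over 3 captures, exact sign-flip permutation test over captures, two-sided p = 0.25, the smallest that 3 pairs allow). No test over 3 captures can pass 0.05 in this way, so the sizes and their order are what these values give.

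Depth also split the members themselves. The 261 members with no Malat1 UMI had a median of 3051 ± 37.8 UMIs and the 284 with some Malat1 under 0.1% had 4082 ± 748 (mean and SD of the 3 capture medians). The 83 members from 0.1% to 0.7% Malat1 (17, 31 and 35) had 9151 ± 504 UMIs and 2287 ± 259 genes, close to the 11132 UMIs of the Malat1-bearing barcodes from 0.7% to 1.5%. These 83 made up 13.2% of the members but 27.7% of their nuclear-encoded UMIs, so they weigh more in every sum below than their number. Without them 1169 genes were higher and 1052 lower of 6063 tested, in the comparison described below, and medians of gene lists without them are given as those in members under 0.1% Malat1.

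Mitochondrial transcripts took more than 50% of the UMIs in most members of captures 2 and 3. The median share of UMIs from the 13 mitochondrial mRNAs was 45.6%, 54.1% and 59.8% in members of captures 1, 2 and 3, and 29.5%, 31.5% and 36.2% in Malat1-bearing intermediate barcodes. The share was higher in members in 3 of 3 captures, by 20.8 ± 4.09 percentage points (SD, n = 3, exact sign-flip permutation test, two-sided p = 0.25, the smallest possible). The lowest member median exceeded the highest Malat1-bearing one. The rule took Malat1 as a share of all UMIs, so mitochondrial UMIs lower that share and the 2 shares are not independent. Mitochondrial UMIs do not enter a limit of 1.2% Malat1 among nuclear-encoded UMIs. With that limit the medians were 45.6%, 54.0% and 59.9% in members and 29.5%, 31.6% and 36.4% in Malat1-bearing barcodes. A share over 50% was found in 37, 173 and 188 members (35.9%, 62.5% and 75.8%), against 7, 45 and 52 Malat1-bearing barcodes (4.61%, 8.11% and 10.1%). The members were nevertheless broad, with 10th and 90th percentiles of 24.3% and 67.2% in capture 1, 34.2% and 70.9% in capture 2, and 40.1% and 74.7% in capture 3.

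In captures 2 and 3, but not in capture 1, the high share was reached at a similar number of mitochondrial molecules. Members of captures 1, 2 and 3 held a mean of 2292, 2526 and 2544 mitochondrial UMIs per barcode and Malat1-bearing intermediate barcodes 3255, 2499 and 2510. The latter held 1.42, 0.989 and 0.987 times as many mitochondrial UMIs, and 2.59, 2.39 and 2.34 times as many nuclear-encoded UMIs, by the same means. Among members with no Malat1 UMI the median share was 46.6%, 52.8% and 63.0% in captures 1, 2 and 3, with some Malat1 under 0.1% it was 45.6%, 56.0% and 60.5%, and from 0.1% to 0.7% it was 44.6%, 50.3% and 53.0%. The last of these bands was the lowest in 3 of 3 captures, and its barcodes were the deepest, with a mean of the capture medians of 9151 UMIs against 3051 with no Malat1 UMI. Malat1-bearing barcodes had 41.9% ± 3.10 from 0.7% to 1.5% and 29.2% ± 4.61 from 1.5% upward. Low-Malat1 marginal barcodes had medians of 45.5%, 49.5% and 48.0%, and Malat1-bearing marginal barcodes 21.1%, 28.7% and 21.0%. Members stood above low-Malat1 marginal barcodes by 5.49 ± 5.91 points (SD, n = 3, exact permutation p = 0.25), within the spread between captures. The low-Malat1 barcodes of neither type had higher medians than members, at 62.4%, 62.3% and 68.6%.

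**Figure D2:**
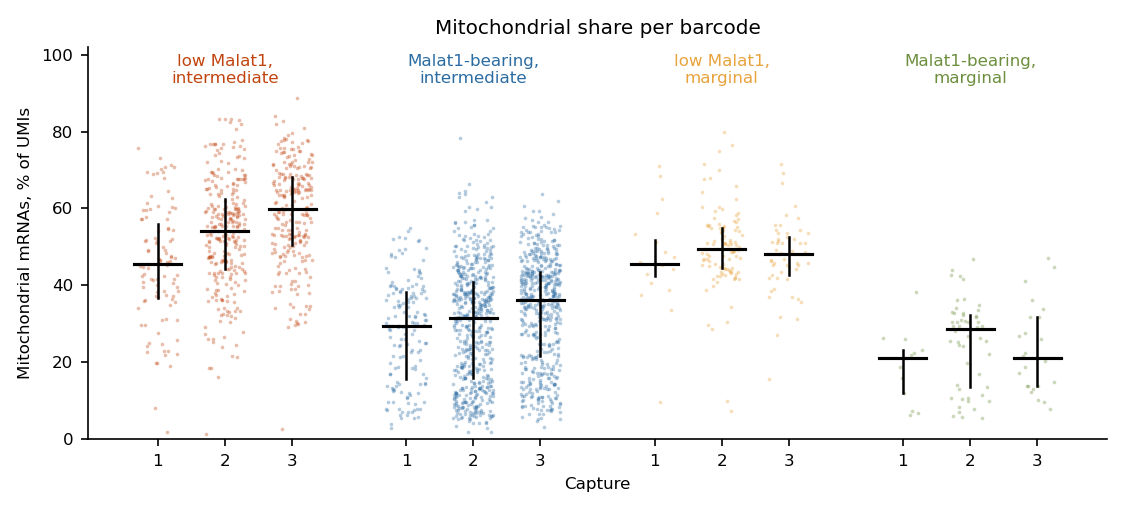
Mitochondrial share (percent of UMIs) of every barcode in each cell capture, for members and the 3 comparison groups, with horizontal bars at the median and vertical bars from the 25th to the 75th percentile. The medians of members (45.6%, 54.1% and 59.8%) lie above those of Malat1-bearing intermediate barcodes (29.5%, 31.5% and 36.2%) in every capture, while the single barcodes overlap.

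The single mitochondrial mRNAs rose in nearly the same proportion. The most abundant in members was mt-Atp6, of the ATP synthase. It gave 9.21%, 12.2% and 13.1% of all UMIs in members of captures 1, 2 and 3, against 6.20%, 7.06% and 7.91% in Malat1-bearing barcodes. For mt-Co3, of cytochrome oxidase, the capture means were 9.62% and 6.06%, for mt-Co1 7.55% and 5.36%, and for mt-Nd1, of complex I, 5.90% and 3.66%. The ratio of members to Malat1-bearing barcodes ran from 1.39 to 1.64 over 12 of the 13 mRNAs, and stood at 1.09 for the scarce mt-Nd6. Within mitochondrial UMIs alone the make-up was close but not identical. There mt-Atp6 took 22.0% ± 1.32 in members and 21.2% ± 0.996 in Malat1-bearing barcodes, within the spread. For mt-Co1 it was 14.5% ± 0.203 and 16.1% ± 0.402, lower in members by more than the spread (SD, n = 3).

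The nuclear-encoded genes are given as UMIs per 1000000 nuclear-encoded UMIs (CPM) of the summed barcodes of a group in a capture. They come from 3' libraries that count transcript ends, so a level was not divided by gene length. The sums rest on 288644, 598790 and 468166 nuclear-encoded UMIs of members in captures 1, 2 and 3. The most abundant genes included those of pigment cells. Fth1, the ferritin heavy chain that stores iron, led with 52241, 46604 and 51757 CPM in members and 43654, 31644 and 39282 CPM in Malat1-bearing barcodes. Dct, a melanin-synthesis enzyme of melanocytes, followed with 21189, 16690 and 13824 CPM against 27302, 23212 and 20367 CPM, and was lower in members in 3 of 3 captures although the ranges over captures overlapped. The 12 most abundant genes together took 14.7% ± 0.259 of the nuclear-encoded UMIs of members, and the 100 most abundant took 33.2% ± 0.662 (SD, n = 3).

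The label intermediate was checked against markers. Dct averaged 36.0 UMIs per member, 10.4 per low-Malat1 barcode of neither type, 16.6 per low-Malat1 marginal barcode and 2.96 per erythroid barcode (104 barcodes with hemoglobin at 10% of UMIs or more, which should lack it). The erythroid barcodes were deeper, with medians of 9942 and 9903 UMIs in captures 2 and 3. Gsta4, a glutathione transferase, averaged 9.38 UMIs per member against 5.10 per low-Malat1 marginal, 4.33 per low-Malat1 barcode of neither type and 1.62 per erythroid barcode. These groups differ in depth. Relative to nuclear-encoded UMIs, Gsta4 stood at 4362 CPM in members and close to it, at 3689 CPM, in low-Malat1 barcodes of neither type, while Dct stood at 17234 and 9312 CPM. Gstp1, another glutathione transferase, was scarce at 0.166 UMIs per member (0.083 in low-Malat1 marginal and 0.077 in erythroid barcodes), so of Mlana, Gstp1 and Gsta4 it described the members least. Pmel, Tyrp1, Oca2, Kit and Mc1r, genes of pigment cells in skin, were at or near 0 in both intermediate groups.

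The rule's own genes differed in level between the 2 intermediate groups, which is given with no test. Mlana, a melanosome protein, stood at 932, 1091 and 1128 CPM in members of captures 1, 2 and 3 and at 529, 557 and 619 CPM in Malat1-bearing barcodes. The receptor gene Met stood at 1168, 1064 and 1175 against 1522, 1312 and 1383 CPM. The potassium channel gene Kcnj13 stood at 215, 281 and 252 against 391, 454 and 386 CPM. For Mlana alone of the 4 genes the members were higher, and for Met, Kcnj13 and Nrp2 they were lower in each capture. Since each member needed 3 UMIs of these genes from a small total, the sums of the 4 genes are shaped by the rule.

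Most nuclear-encoded transcripts were kept in similar proportion. Of 3292 tested genes at 50 CPM or more by the mean of members and Malat1-bearing intermediate barcodes, 3176 (96.5%) had levels within 2-fold of each other in these groups. The level in members was lower by 2- to 4-fold for 97 genes (2.95%) and by more than 4-fold for 11 (0.334%), and 8 genes stood over 2-fold higher. A cut on the mean leaves out some genes nearly absent from members. Of 3449 tested genes at 50 CPM or more in Malat1-bearing intermediate barcodes, 3252 (94.3%) were within 2-fold. Of these 3449, 166 (4.81%) were 2- to 4-fold lower in members, 25 (0.725%) more than 4-fold lower and 6 over 2-fold higher. The sums of the 4 groups in 3 captures were fitted together with edgeR's quasi-likelihood test, with the capture as a block and a Benjamini-Hochberg adjustment over every gene in the fit. Of 6432 genes tested, 1022 were higher in members (15.9%) and 879 lower (13.7%), at a median log2 fold change of -0.00. With the normalization by trimmed means (TMM) switched off the counts were 582 and 1453 and the median of all genes was -0.18, so 28.6% of calls were higher in place of 53.8%. Without capture 2 they were 516 and 463, without capture 3 668 and 542, and with each barcode thinned to 1000 UMIs 150 and 292 of 1316 tested genes. By DESeq2 they were 583 and 538. Across these settings no gene was called in the direction opposite to the main one. Under other settings 4 genes were, namely S100a8 with Malat1-bearing barcodes from 1.5% and Efhd1, Nudt4 and Clu without barcodes with markers of other cell types.

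Transcripts for ribosomes and for the respiratory chain were the groups most evenly higher in members. Of 81 tested genes for cytosolic ribosomal proteins, 80 were higher and none lower, beside 15.9% and 13.7% of all genes, at a median log2 fold change of 0.49. Together they gave 110910 CPM in members and 82158 CPM in Malat1-bearing barcodes. The leading gene, Rpl41, of the large subunit, had 6423, 7245 and 7762 CPM in members of captures 1, 2 and 3 and 4496, 4754 and 5288 CPM in Malat1-bearing barcodes (log2 fold change 0.63 ± 0.07 SE, edgeR adjusted p = 2.61e-11). The groups did not overlap. Rpl7l1, a ribosome biogenesis protein listed with them, had a log2 fold change of 0.22 and an adjusted p of 0.501. Ribosomal protein genes have many near-identical pseudogenes, so single members of the list are uncertain. With TMM off 65 of the 81 were higher, without capture 2 64, with at least 6 UMIs of the 4 intermediate genes 33, and thinned to 1000 UMIs 37 of 80, at a median of 0.24. In members under 0.1% Malat1 the median was 0.76.

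Among 77 tested nuclear-encoded genes of the respiratory chain and ATP synthase, 71 were higher and none lower, beside 15.9% and 13.7% of all genes (median 0.69, or 0.95 in members under 0.1% Malat1). Their summed level was 68105 CPM in members and 43533 CPM in Malat1-bearing barcodes. Cox8a, a cytochrome oxidase subunit, had 4559, 5090 and 4994 CPM against 3081, 3001 and 3235 CPM (0.72 ± 0.08, edgeR adjusted p = 3.23e-12). Atp5e, a small subunit of the ATP synthase, had 2882, 3442 and 3362 CPM against 1724, 1719 and 1846 CPM (0.94 ± 0.08, edgeR adjusted p = 2.37e-16). In both genes every member sum lay above every Malat1-bearing sum. The 6 that did not pass were Cyc1, Ndufa10, Ndufs1, Ndufs3, Uqcrc1 and Uqcrc2, with Uqcrc1 at 95.7 and 94.5 CPM and Ndufs1 at 67.0 and 70.8 CPM. With at least 6 UMIs of the 4 intermediate genes 45 of 77 were higher, and thinned to 1000 UMIs 35 of 69, at a median of 0.36. With the barcodes held to a mitochondrial share of 20% to 60% in every group, 70 of 77 were higher. None was lower in any of these.

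Other cytoplasmic functions followed in part. Of 34 tested genes (46 listed) for glutathione enzymes and peroxide defence, 20 were higher and 2 lower, beside 15.9% and 13.7% of all genes (median 0.43, and 0.65 in members under 0.1% Malat1). Without capture 2, 12 of 31 were higher and none lower, and with at least 6 UMIs of the 4 intermediate genes 7 of 32. Their summed level was 18253 against 12284 CPM. Gpx4, which reduces lipid peroxides, had 3180, 3088 and 2751 CPM in members and 1965, 1917 and 1742 CPM in Malat1-bearing barcodes (0.75 ± 0.08, edgeR adjusted p = 4.38e-12). Gsta4 had 4750, 4735 and 3601 CPM against 2946, 3258 and 2635 CPM (0.63 ± 0.08, edgeR adjusted p = 1.95e-09). Both genes were higher in 3 of 3 captures without overlap. Gstp1 had 166, 35.1 and 74.8 CPM against 127, 33.1 and 38.6 CPM (0.55 ± 0.20, edgeR adjusted p = 0.0287), higher in 3 of 3 captures with ranges that overlapped, and it lost the call without capture 1 or without capture 3. The 2 lower genes were Sod3, the extracellular superoxide dismutase (-0.63), and Hmox1, which degrades heme (-1.27).

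Beside 15.9% higher and 13.7% lower among all genes, 14 of 22 tested translation factors (63.6%) were higher and none lower (median 0.39), with Eef2, an elongation factor, at 1275, 962 and 1115 CPM against 887, 828 and 809 CPM. Without capture 2, 9 translation factors were higher, without capture 3 8, and thinned to 1000 UMIs 1 of 21. Of 15 glycolysis genes 9 were higher and none lower (median 0.44), with Tpi1 at 1393, 1181 and 1164 CPM against 928, 798 and 899 CPM. Thinned to 1000 UMIs, 3 of 11 were higher, at a median of 0.063. Of 13 heat shock genes 4 (30.8%) were higher and none lower (median 0.31), among them the chaperone gene Hsp90ab1 (0.50), and thinned to 1000 UMIs none of 7 was (median 0.094). Of 28 cytoskeleton genes 10 (35.7%) were higher and none lower, and their median of 0.16 turned to -0.02 with TMM off and to -0.13 thinned to 1000 UMIs, where 2 of 17 were higher and 3 lower. Tmsb4x, which binds actin monomers, rose by 0.87 ± 0.09 (edgeR adjusted p = 9.96e-14), while the actin gene Actb had 1469, 1989 and 1878 CPM against 1517, 1941 and 1936 CPM. Of 41 proteasome and ubiquitin genes 8 (19.5%) were higher and none lower (median 0.06, 0.22 in members under 0.1% Malat1, and -0.12 with TMM off), and 5 without capture 1 or without capture 2. Endoplasmic reticulum genes were 6 higher (18.8%) and 5 lower (15.6%) of 32, and lysosome genes 6 higher (19.4%) and 5 lower (16.1%) of 31, shares near those of all genes, with medians of -0.09 and -0.06 (-0.03 and -0.22 in members under 0.1% Malat1). Without capture 2, 1 gene of each list was higher, and with TMM off 11 and 12 were lower.

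**Figure D3:**
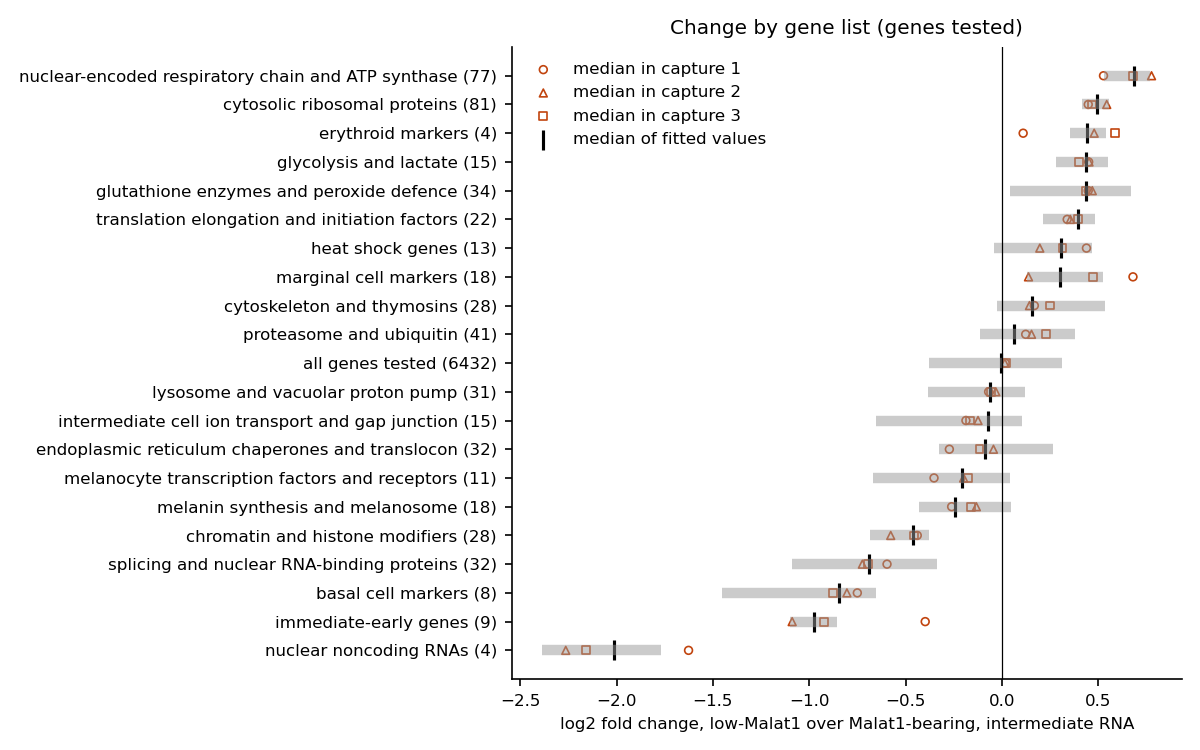
Log2 fold change of each gene list, members over Malat1-bearing intermediate barcodes (x axis), with the number of tested genes in parentheses. Black ticks are medians of fitted values, grey bars run from the 25th to the 75th percentile of genes, and open symbols are the medians in single captures. The respiratory chain (0.69) and ribosomal protein (0.49) lists lie to the right of all genes tested (-0.00), and the splicing (-0.69) and nuclear noncoding (-2.01) lists to the left.

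Noncoding RNAs known to stay in the nucleus were lower in members. Of 13 nuclear noncoding RNAs listed beside Malat1, 4 had enough counts to be tested, and all 4 were lower, beside 13.7% of all genes (median -2.01, and -4.25 in members under 0.1% Malat1), with a summed level over the list of 500 CPM against 1965 CPM. Neat1, which builds paraspeckles, had 343, 249 and 130 CPM in members and 1020, 914 and 817 CPM in Malat1-bearing barcodes (-1.91 ± 0.21, edgeR adjusted p = 4.21e-05). Xist, which coats the inactive X chromosome, had 97.0, 100.2 and 246 CPM against 332, 731 and 878 CPM (-2.12 ± 0.14, edgeR adjusted p = 2.87e-21). Kcnq1ot1, the antisense RNA of the imprinted Kcnq1 locus, had 34.6, 5.01 and 19.2 CPM against 166, 171 and 139 CPM (-3.19 ± 0.26, edgeR adjusted p = 1.90e-14). In none of these did the groups overlap. Gm26917 was the fourth (-1.36). Kcnq1ot1 lies opposite to Kcnq1, a marginal cell gene, so its UMIs depend on how strand was handled in the counting.

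Of 32 tested splicing and nuclear RNA-binding genes 19 were lower and none higher (median -0.69, and -0.96 in members under 0.1% Malat1), beside 13.7% of all genes lower. Their summed level was 4633 CPM in members and 7717 CPM in Malat1-bearing barcodes. Pnisr, a splicing-associated protein, averaged 63.4 against 269 CPM (-2.03), and Clk1, a kinase of splicing factors, 42.8 against 134 CPM (-1.70). Son, a speckle scaffold, had 225, 179 and 186 CPM against 439, 579 and 517 CPM (-1.34 ± 0.13, edgeR adjusted p = 7.77e-15). Hnrnpa2b1 and Hnrnpk, abundant RNA-binding proteins of the same list, stood at log2 fold changes of -0.01 and 0.16 and did not pass. Of 28 chromatin genes 14 were lower and 1, Smarca4, a remodelling ATPase, was higher (median -0.46, and -0.65 in members under 0.1% Malat1). Without capture 2, 6 of 27 were lower, and without capture 3, 8 of 28, and Smarca4 did not pass with any 1 capture left out. Kmt2e had 83.1, 81.8 and 104.7 CPM against 167, 171 and 175 CPM (-0.86 ± 0.16, edgeR adjusted p = 1.23e-05), while Atrx, another chromatin remodeller, stood at 0.01.

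Short-lived stress transcripts were lower as well. Of 9 tested immediate-early genes (26 listed) 7 were lower and none higher, beside 13.7% of all genes lower (median -0.98, and -1.47 in members under 0.1% Malat1). Without capture 2, 4 of 10 were lower. Zfp36l1, which promotes mRNA decay, had 149, 115 and 122 CPM in members and 203, 265 and 261 CPM in Malat1-bearing barcodes (-0.90 ± 0.14, edgeR adjusted p = 3.13e-07). Dusp1, a phosphatase of MAP kinases, averaged lower by -0.99. Jund and Klf4 did not pass, at -0.28 and -1.29.

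The genes of melanocyte identity moved less evenly. Of 25 melanin and melanosome genes 18 passed the filter on low counts. Of these 18 melanin and melanosome genes 6 were lower (Tyr, Gpnmb, Syt11, Cd63, Tspan10 and Hps4) and 1 higher (Myo5a, the motor that moves melanosomes), at a median of -0.24 (33.3% lower, beside 13.7% of all genes). Without capture 1, 2 of 19 were lower, without capture 2 4 of 16, without capture 3 4 of 18, and without the capture block 3 of 18. Without barcodes with markers of other cell types 8 of 18 were lower (median -0.48), and thinned to 1000 UMIs 7 of 9 (median -0.86). The higher call of Myo5a was lost without capture 2, without the capture block, with TMM off and by DESeq2. Its log2 fold change turned to -0.091 thinned to 1000 UMIs. Their summed level was 23810 CPM in members, 31183 CPM in Malat1-bearing intermediate, 9389 CPM in low-Malat1 marginal and 6010 CPM in Malat1-bearing marginal barcodes. Tyr, the first enzyme of melanin synthesis, had 852, 803 and 1072 CPM against 1479, 1205 and 1712 CPM (-0.62 ± 0.19, edgeR adjusted p = 0.0333), and it lost the call without capture 1. Dct, at -0.40 ± 0.16, did not pass (edgeR adjusted p = 0.122). Of 11 tested melanocyte transcription factor and receptor genes (20 listed) 5 were lower (Ednrb, Pax3, Zeb2, Cd44 and Sox10) and 1 higher (Gpm6b), at a median of -0.21. None of them was higher without capture 2, without capture 3, without the capture block, with TMM off or by DESeq2. Leaving out barcodes with markers of other cell types, 8 of 10 were lower (median -0.52). Thinned to 1000 UMIs, 6 of 7 were lower (median -0.73). Sox10, which specifies neural crest derivatives, had 187, 207 and 171 CPM against 451, 329 and 349 CPM (-0.88 ± 0.13, edgeR adjusted p = 2.84e-08). Pax3 stood at -1.17, and Mitf, the regulator of melanocyte genes, at -0.04 with overlapping groups.

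Of 15 tested ion transport genes of the intermediate cell (20 listed), none was higher and 5 were lower (33.3%, beside 13.7% of all genes), among them Atp1b1, Gjb6, Slc2a1 and Car12. Their median was -0.07, but -0.35 in members under 0.1% Malat1, -0.29 at a mitochondrial share of 20% to 60% and -0.60 thinned to 1000 UMIs, where 8 of 11 were lower. Without capture 2, 2 of 14 were lower. Kcnj10 had 3014, 2685 and 2903 CPM in members of captures 1, 2 and 3 and 3511, 2781 and 2916 CPM in Malat1-bearing barcodes, with ranges that overlapped (-0.02 ± 0.21). Atp1b1, a beta subunit of the sodium pump, had 6018, 5695 and 5940 CPM against 8219, 7797 and 8609 CPM (-0.41 ± 0.11, edgeR adjusted p = 0.0108), without overlap, and it lost the call without capture 1.

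Single genes with the largest change were taken from those past the threshold, changed the same way in every capture and at 50 CPM or more in the higher group. The 12 highest were Cdr2, Mt3, Gpx3, Klhl2, Gas2, Hrsp12, Rai14, Wwc1, Itpr1, Rab27b, March8 and Prkag2, at log2 fold changes from 1.06 to 1.32. Mt3, a metal-binding metallothionein, had 1562.5, 2144 and 2232 CPM in members and 766, 874 and 945 CPM in Malat1-bearing barcodes (1.26 ± 0.08, edgeR adjusted p = 6.53e-22). Gpx3, the secreted glutathione peroxidase, had 1382, 1451 and 1741 CPM against 567, 713 and 786 CPM (1.22 ± 0.09, edgeR adjusted p = 7.94e-21). Gas2, which binds actin, had 1607.5, 1717 and 2115 CPM against 641, 843 and 1043 CPM (1.19 ± 0.09, edgeR adjusted p = 8.90e-21). In all 3 the groups were apart in every capture.

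Most of these 12 genes, which were picked for the size of their rise, were also abundant in marginal barcodes. Of the 12, 11 had more CPM in marginal than in intermediate barcodes, both among low-Malat1 and among Malat1-bearing barcodes. Mt3 averaged 6163 and 3706 CPM, Gpx3 3688 and 2922 CPM, and Gas2 5012 and 3314 CPM in low-Malat1 and Malat1-bearing marginal barcodes. Of all 1022 higher genes 701 (68.6%) had more CPM in Malat1-bearing marginal than in Malat1-bearing intermediate barcodes, beside 3637 (56.5%) of the 6432 tested. The level in Malat1-bearing intermediate barcodes enters both the rise and these counts, so they are a description. Kcne1, bounded by the rule, stood at 350, 364 and 342 CPM in members, at 193, 231 and 220 CPM in Malat1-bearing intermediate and at a mean of 1976 CPM in low-Malat1 marginal barcodes. No Kcne1 UMI was found in 71, 170 and 173 members.

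The marginal marker list as a whole had 18 tested genes, of which 2 were higher in members (Esrrb, an orphan nuclear receptor, and Dclk1, a microtubule-associated kinase) and none lower. These were 11.1%, under the 15.9% higher among all genes. Its summed level was 12899 CPM in members, 11784 CPM in Malat1-bearing intermediate, 22860 CPM in low-Malat1 marginal and 34385 CPM in Malat1-bearing marginal barcodes. Its median was 0.30, but -0.10 in members under 0.1% Malat1 (1 higher and 1 lower). After thinning to 1000 UMIs it was -0.60, with 3 of 9 tested genes lower and none higher. With Malat1-bearing barcodes from 1.5% it was 0.52 (4 higher). With only barcodes free of Kcne1 UMIs in both intermediate groups, the log2 fold changes of the 12 genes ran from 0.95 to 1.81, with Mt3 at 1.77, Gas2 at 1.79 and Gpx3 at 1.60, and the median of the marginal list was 0.73 (4 higher). A count of 0 asks more of the deeper Malat1-bearing barcodes than of members, and Prkag2 no longer passed. The part of marginal RNA in these changes was not tested.

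**Figure D4:**
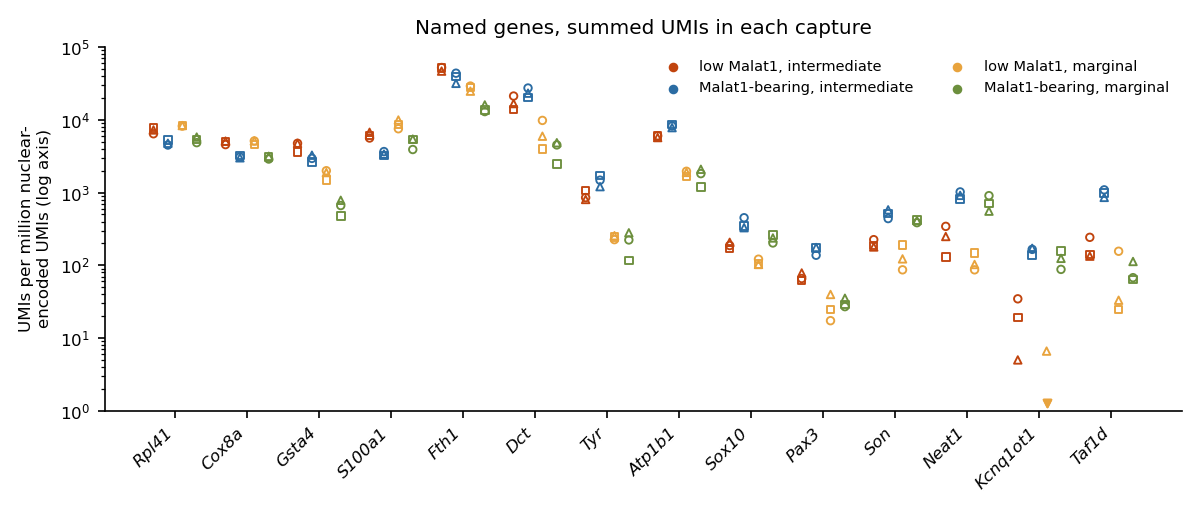
Levels of 14 named genes in CPM of nuclear-encoded UMIs (log axis) in the 4 groups of barcodes, with 1 symbol per capture (circle, triangle and square for captures 1, 2 and 3) and a filled triangle at the lower edge for a level of 0. Rpl41, Cox8a, Gsta4 and S100a1 are higher and Sox10, Pax3, Son, Neat1, Kcnq1ot1 and Taf1d lower in members than in Malat1-bearing intermediate barcodes in every capture.

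The 12 lowest genes were Sag, Klhl40, Kcnq1ot1, Ifitm1, BC005561, Itih5, Vgll4, Pde4d, Taf1d, Git2, Snhg7os and Ebf1, at log2 fold changes from -4.14 to -2.28. Of these, Ebf1 lost the call, at 0.064, with the 4 intermediate genes at 0.2% or more of nuclear-encoded UMIs. Sag, known as the arrestin of photoreceptors, had 0, 6.68 and 0 CPM in members of captures 1, 2 and 3 (4 UMIs in all) and 54.3, 64.8 and 50.0 CPM in Malat1-bearing barcodes (360 UMIs). Klhl40, a kelch protein best known from muscle, had 3.46, 5.01 and 4.27 CPM against 68.8, 77.4 and 89.1 CPM. In the nucleus capture, Malat1-bearing intermediate barcodes had 281 CPM of Klhl40 (95% Poisson interval 263 to 300, counting error only) and 4.00 CPM of Sag (2.13 to 6.85). Both genes were thus nearly absent from members, but only Klhl40 was frequent in nuclei.

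Taf1d, a factor of ribosomal RNA transcription, was the most abundant of the 12 at 242.5, 134 and 141 CPM in members and 1089, 857.5 and 982 CPM in Malat1-bearing barcodes (-2.49 ± 0.16, edgeR adjusted p = 1.87e-12). It overlaps Cep295, so its UMIs are uncertain. Vgll4, a transcription cofactor, had 3.46, 8.35 and 10.7 CPM against 51.6, 64.8 and 56.2 CPM (-2.76 ± 0.37, edgeR adjusted p = 1.61e-08). Pde4d, a cyclic AMP phosphodiesterase, had 13.9, 11.7 and 25.6 CPM against 87.8, 109.5 and 101.3 CPM (-2.49 ± 0.26, edgeR adjusted p = 6.06e-13).

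Transcript length and the ratio of a gene's level in nuclei to that in cells went along with the change. Tested genes were cut into quartiles of the length of their longest annotated transcript (6429 genes with a length). In the shortest quartile, at a median of 1489 bases, 31.0% were higher in members and 5.35% lower, with a median log2 fold change of 0.25. In the longest, at 6834 bases, 7.97% were higher and 23.2% lower, with a median of -0.20. A like order was seen when genes were cut by the ratio of their level in Malat1-bearing marginal barcodes of the nucleus capture to that in the cell captures, a measure made without any intermediate barcode. In the lowest quartile of that ratio 30.4% were higher and 9.70% lower (median 0.19), and in the highest 5.79% were higher and 23.4% lower (median -0.25). Spearman's rho across genes was -0.31 for length and -0.29 for the ratio, and 0.37 between length and ratio. Genes are not independent replicates and the 2 properties go together, so these are descriptions. The Malat1-bearing marginal barcodes behind the ratio were mixed. At least 2 UMIs of 20 markers of other cell types were found in 92.3%, 56.6% and 58.3% of them in cell captures 1, 2 and 3. In the nucleus capture it was 36.8%.

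**Figure D5:**
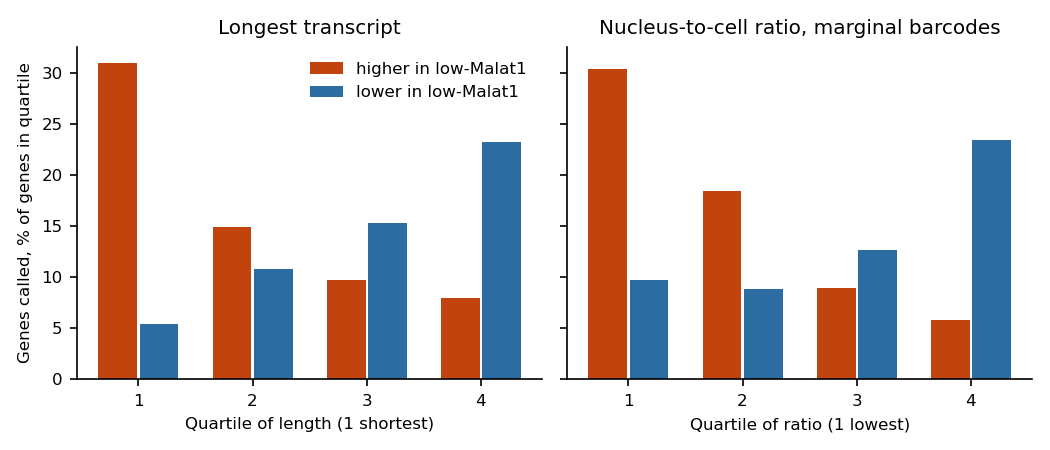
Percent of tested genes called higher (red) and lower (blue) in members, by quartile of transcript length (left) and of the nucleus-to-cell ratio in marginal barcodes (right). The percent higher falls from 31.0 to 7.97 with length and from 30.4 to 5.79 with the ratio. The percent lower rises from 5.35 to 23.2 with length, and with the ratio it goes from 9.70 over 8.84 in the second quartile to 23.4.

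RNA of other cell types was measured in both intermediate groups. Of 8 tested basal cell genes (15 listed) 7 were lower in members and none higher, beside 13.7% of all genes lower (median -0.85), with a summed level of 2261 against 4021 CPM. In members under 0.1% Malat1 all 8 were lower, at a median of -1.27. The count was 4 of 8 without capture 2, 3 of 8 without the capture block, 1 of 7 with at least 6 UMIs of the 4 intermediate genes and 1 of 8 with these genes at 0.2% or more of nuclear-encoded UMIs. The most abundant of them, Gjb6, a gap junction protein that intermediate cells are also listed with, had 1029, 1057 and 767 CPM against 1630, 1718 and 1334 CPM. Cldn11 had 430, 262 and 130 CPM against 801, 761 and 467 CPM. Spindle and root markers summed to 103 against 169 CPM, fibrocyte markers to 939 against 1570 CPM (most of it Gjb2, with 1, Otos, called higher, though not by DESeq2 or with any 1 capture left out), endothelial and pericyte markers to 35 against 83 CPM with 7 of 14 genes at 0 in members, and macrophage markers to 28 against 32 CPM. B cell markers summed to 37 against 83 CPM, and the 1 gene tested, Ebf1, was lower. With the 4 intermediate genes at 0.2% or more of nuclear-encoded UMIs it was not called and stood at 0.064.

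Neutrophil and red cell RNA stood out in capture 3. Neutrophil markers summed there to 143 CPM in members and 974 CPM in Malat1-bearing barcodes, and their top gene S100a8 had 6.93, 1.67 and 74.8 CPM against 1.81, 1.74 and 462 CPM in captures 1, 2 and 3. Erythroid markers summed over captures to 2899 against 2298 CPM, and in capture 3 to 5169 against 3900 CPM. Over captures the largest part was Car2 (a mean of 1150 against 1068 CPM), which the ion transport list also holds, and the sum includes Hbb-bs and Hba-a1, which the rule bounded. At least 2 UMIs of 20 markers of other cell types were found in 7.77%, 5.05% and 12.1% of members and in 28.9%, 21.4% and 25.4% of the deeper Malat1-bearing barcodes. With those barcodes left out, 996 genes were higher and 1110 lower of 5351 tested, 80 of 81 ribosomal protein genes were higher, and the median of that list was 0.68.

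The same change was then compared with that of marginal barcodes, as the difference of the 2 log2 fold changes in the same fit. Of 6432 genes, 85 had a higher (1.32%) and 46 a lower (0.715%) change in intermediate than in marginal barcodes. Of ribosomal protein genes 7 of 81 had a lower change in intermediate barcodes and none a higher one, and their median was 0.49 in intermediate and 0.80 in marginal barcodes. For the respiratory chain the medians were 0.69 and 0.66, with none of 77 genes called in either direction. For splicing genes they were -0.69 and -0.81, again with none of 32 called. A gene that missed the threshold is not shown to act alike in both.

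Of the 18 marginal markers 5 had a higher change in intermediate barcodes and none a lower one. Of 18 melanin and melanosome genes 3 had a lower change, of 11 melanocyte regulators 1, and of 15 ion transport genes of the intermediate cell 2 had a higher one, with none called in the other direction in these lists. Gsta4 averaged 1787 CPM in low-Malat1 and 641 CPM in Malat1-bearing marginal barcodes, so its change was lower in intermediate barcodes (-0.98, edgeR adjusted p = 5.94e-08). Gpnmb, a melanosome glycoprotein, fell in members and stood at 609 and 435 CPM in the marginal groups (-0.83, edgeR adjusted p = 4.30e-04). Ednrb, the endothelin receptor of melanocytes, stood at 233 and 122 CPM there (-1.32, edgeR adjusted p = 1.96e-04). Atp1b2, the beta subunit used by marginal cells, stood at 520, 458 and 566 CPM in members and 495, 536 and 489 CPM in Malat1-bearing intermediate barcodes, against means of 2039 and 6382 CPM in low-Malat1 and Malat1-bearing marginal barcodes (1.56, edgeR adjusted p = 1.99e-11). Gsta4, Gpnmb and Ednrb thus had more CPM in low-Malat1 than in Malat1-bearing marginal barcodes, and Atp1b2 had less. The marginal groups were small, with 13 Malat1-bearing barcodes in capture 1. At least 2 UMIs of the 20 markers of other cell types were found in 92.3%, 56.6% and 58.3% of Malat1-bearing marginal barcodes. In low-Malat1 marginal barcodes these shares were 10.0%, 16.7% and 18.9%. Spindle and root markers summed to 907 CPM in Malat1-bearing and 71.0 CPM in low-Malat1 marginal barcodes. The part of size, depth and RNA of other cell types in these differences was not tested.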

How the data were processed

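Per the labels, the libraries were made on the 10x Genomics Chromium platform, and the submitters' processing notes name Cell Ranger 2.0.0 and mm10. The authors deposited filtered matrices of UMI counts per gene and barcode, with no normalization, for 3 cell captures (27998 genes) and 1 nucleus capture (48816 genes, not the same gene set). Deposited counts were used as they stand, and each capture held 2811309 to 8340882 UMIs (cells) or 22332501 (nuclei). Depth per barcode limits the detection of low genes, above all in members.

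Members and gene lists were chosen with earlier results of these data known. Barcodes were grouped by the rule, and counts were summed per group and capture (12 sums). Mitochondrial genes and the 8 rule genes were left out of the fit and its library sizes. CPM were taken over all nuclear-encoded UMIs, Malat1 and the other rule genes included. edgeR 4.0.16 in R 4.3.3 (TMM, filterByExpr, glmQLFit with robust, capture as block, adjusted p under 0.05) gave the contrasts. The capture block was used because sums of 1 capture come from 1 suspension; deviations from group means correlated between sums of the same capture in all 18 pairs of groups (r 0.104 to 0.544, 1657 genes). On simulated counts for members against Malat1-bearing barcodes (6319 genes), 84.38% of 96 genes changed 2-fold and 98 of 98 changed 4-fold were recovered, and 10 of 189 calls were false (5.29%). The simulated sums shared a common gene profile, with no capture effect and no difference between intermediate and marginal barcodes. Rises and falls were drawn in equal number. The real sums differ in these points and gave far more calls, so this false share does not carry over to them.

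Named genes were the rule genes, the 12 most changed in each direction, the 12 most abundant, up to 6 per list by level, the 5 most changed in each direction between intermediate and marginal barcodes, and Mlana, Gstp1 and Gsta4; a few others of a list were picked after their values were seen (Pnisr, Clk1, Smarca4, Sod3, Hmox1, Esrrb, Rpl7l1, Uqcrc1, Ndufs1). Of 27 lists, 11 symbols found no match. Some genes of the ion transport list are not reported here by name. Transcript lengths (longest per gene) came from GENCODE vM21 (27645 of 27998 identifiers matched). Python 3.11.15, numpy 2.4.6, scipy 1.17.1, scanpy 1.11.5 (Scrublet, for doublets) and matplotlib 3.10.9 were used. Alternatives were other Malat1 limits (0.5%, 1.0%, 1.2% of nuclear-encoded UMIs, a gap up to 1.5%), at least 6 UMIs, no Kcne1 UMI, at least 500 genes, a mitochondrial share of 20% to 60%, doublets removed, thinning, DESeq2 1.42.0, no low-count filter, no block, no TMM, mitochondrial genes counted, the intermediate sums alone, and each capture left out. Added after seeing the data were members under 0.1% Malat1, 4 genes at 0.2% or more of nuclear-encoded UMIs, thinning to 1000 nuclear-encoded UMIs, and leaving out barcodes with other markers.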

Additional observations from a re-analysis of the deposited data

Results flagged for a closer look

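The change with low Malat1 differed between intermediate and marginal barcodes most for the following named genes, each past an adjusted p of 0.05 in edgeR's test of the difference. Values are differences of log2 fold changes, intermediate minus marginal. Higher were Hes1 (7.15, where low-Malat1 marginal barcodes held 0 UMIs, so that the value depends on the prior count and is no bound), Bsnd (3.22), Serinc2 (2.90), Slc45a4 (2.79) and Apbb2 (2.78). Bsnd, a chloride channel subunit of marginal cells, had 11 UMIs in members, 47 in Malat1-bearing intermediate, 6 in low-Malat1 marginal and 79 in Malat1-bearing marginal barcodes. Lower were Mdk (-2.19), Pde1c (-1.70), Lgi4 (-1.61), Ccnd2 (-1.45) and Cct5 (-1.37). Lgi4, a secreted protein of the neural crest lineage, had 389 and 1694 UMIs in the intermediate and 72 and 34 in the marginal groups. These counts are small on the marginal side.

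The nucleus capture did not enter the fit, and above it served for the nucleus-to-cell ratio and the levels of Klhl40 and Sag in nuclei. In it, 842 barcodes met the same rule, and 1857 met it with Malat1 at 0.7% or more. Their median mitochondrial share was 46.9% and 2.43%. It was taken over the 37 mitochondrial genes listed for that capture, where the cell captures listed 13. Ribosomal protein genes summed to 36202 and 10109 CPM, respiratory chain genes to 71362 and 19152 CPM, nuclear noncoding RNAs to 309.7 and 1935 CPM, and marginal markers to 24691 and 12764 CPM. This is 1 library, with no test.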

How the results depend on the processing

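Of the reversed values below, S100a8 at 1.04 was called in the other direction. Causes were not tested unless a setting's construction shows them. Members numbered 273 with at least 6 UMIs, 414 with no Kcne1 UMI, 395 at a mitochondrial share of 20% to 60%, and 351 to 525 with a capture left out. Malat1-bearing barcodes had a mitochondrial share of 25.5% with no Kcne1 UMI and 37.6% at 20% to 60%, where the limits set it. Genes higher and lower in members were 583 and 538 by DESeq2, 327 and 351 with at least 6 UMIs, 582 and 1453 with no TMM, 150 and 292 thinned to 1000 UMIs (1316 tested), 353 and 465 thinned to 1000 nuclear-encoded UMIs (2329 tested), and 516 to 855 and 463 to 844 with a capture left out. Without the replicate block they were 778 and 688, against 1022 and 879 with it. The difference between intermediate and marginal change was higher for 20 genes with at least 6 UMIs, 52 with no replicate block, 16 and 29 under the thinnings, and 37 to 59 with a capture left out. It was lower for 30 at a Malat1 limit of 0.5%, 94 at 1.0%, 6 with at least 6 UMIs, 19 at 20% to 60% mitochondrial share, 24 with no Kcne1 UMI, 12 with no replicate block, 21 and 14 under the thinnings, and 19 to 35 with a capture left out. Of 114 named genes that were called, 94 kept the call by DESeq2, 89 without the block, and 101, 89 and 96 without capture 1, 2 or 3. Signs turned for Ebf1 (0.064) and S100a8 (0.89) with the 4 genes at 0.2%, for S100a8 also with Malat1-bearing barcodes from 1.5% (1.04) and at 20% to 60% (0.81), for Mt1 with at least 6 UMIs (-0.066), for Cldn11 without other markers (0.44), of which it is one, for Ftl1 (-0.11), Eif4g2 (-0.041), Myo5a (-0.091), Mt1 (-0.12) and Canx (-0.16) thinned to 1000 UMIs, and for Canx thinned to nuclear-encoded UMIs (-0.041). List medians turned for endoplasmic reticulum (0.0012 at 20% to 60%), cytoskeleton (-0.020 with no TMM, -0.13 thinned), proteasome (-0.0034 at a limit of 1.0%, -0.012 with at least 6 UMIs, -0.12 with no TMM) and marginal markers (-0.10 in members under 0.1% Malat1, -0.60 and -0.14 under the thinnings).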
